A study of Mus musculus with 4 samples.

Results

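The 7 genes Gabra2, Gabra3, Gabra4, Gabra5, Gabrb1, Gabrb2 and Gabrg3, which encode subunits of the GABA-A receptor, were followed across the cell classes, subtypes and stages of the developing mouse superior colliculus, the part of the midbrain that maps visual space. They were chosen by symbol and are 7 of the 31053 genes in the count matrix, and some other subunit genes of the family are given beside them. Nuclear RNA came from C57BL/6J mice at embryonic day 19 (E19), postnatal day 4 (P4), P8 or P21, with no other genotype or treatment, and each stage was 1 library of nuclei from several pooled animals. The protocol text writes E10 in brackets beside embryonic day 19, whereas the sample's title and stage label give E19, which is used here. The libraries held 2249 to 2585 nuclei, 9724 in all, with medians of 6828 (E19), 9044.5 (P4), 9672 (P8) and 11745 (P21) unique molecular identifiers (UMIs, 1 per captured RNA molecule) per nucleus.

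GABA-A receptors are chloride channels built from 5 subunits, most often alpha, beta and gamma subunits together, and they carry fast inhibition in the brain. In immature neurons, in which chloride inside the cell is high, opening them can depolarise the cell. The alpha subunit sets much of the receptor's kinetics and drug response: alpha2 and alpha3 are common at synapses, alpha4 and alpha5 are best known from receptors outside the synapse, beta subunits form the GABA site together with alpha, and gamma3 is one of 3 gamma subunits. C57BL/6J mice carry a known intronic deletion in Gabra2 that lowers its RNA and protein, so Gabra2 levels here are those of that background.

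The members lie in 4 gene clusters, and their positions (GRCm38, GENCODE M21, gene bodies with introns) are given because patterns are compared by cluster. On chromosome 5, over 1398 kb, lie Gabrg1, Gabra2 (70957597 to 71095849, minus strand), Gabra4 (71569749 to 71658308, minus) and Gabrb1 (71658113 to 72149037, plus). On chromosome 7 lie Gabrg3 (56716465 to 57387188, minus) and Gabra5 (57407672 to 57510059, minus). On chromosome 11 lie Gabra6 and Gabrb2 (42419757 to 42629028, plus), and Gabra3 (72432681 to 72656848, minus) lies between Gabre and Gabrq on the X chromosome. Gabra4 and Gabrb1 are read away from each other and their first exons overlap by 196 bases. The labels do not say whether counting used the strand of a read, and UMIs from any stretch where genes on opposite strands overlap could have been given to either gene.

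The stretch just upstream of the Gabra4 start lies inside the Gabrb1 gene body. It is shown because these neighbours had the most similar pattern of levels, not the most similar levels, of any pair of members across neuron subtypes (below). The stretch before a second RefSeq start of Gabrb1 is shown with it. Both are RefSeq promoter sequences of GRCm38.p6, cut to bases that lie in no annotated exon; Gabra4 is chr5:71658364-71658558 on the minus strand and Gabrb1 is chr5:71699825-71699931 on the plus strand. Capitals mark letters found by search on both strands: the GC box GGGCGG, the CCAAT box CCAAT, and CGCATGCG, the core of the motif of the factor NRF1.
Gabra4: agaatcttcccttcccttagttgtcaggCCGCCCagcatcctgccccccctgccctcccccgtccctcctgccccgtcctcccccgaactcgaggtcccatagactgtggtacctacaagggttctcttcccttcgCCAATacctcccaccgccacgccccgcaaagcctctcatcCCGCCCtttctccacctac
Gabrb1: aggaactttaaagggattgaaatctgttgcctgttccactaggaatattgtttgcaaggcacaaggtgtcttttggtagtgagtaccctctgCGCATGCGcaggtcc
The Gabra4 stretch held 2 GC boxes and 1 CCAAT box, and the Gabrb1 stretch held the NRF1 core. That Gabrb1 stretch lies well inside the gene body. The Gabrb1 window at the start next to Gabra4 (chr5:71657671-71657970), not shown, held no GC box, CCAAT box, NRF1 core or TATAAA. Of all 32851 RefSeq promoter windows of 300 bases, 35.7% held a GC box, 37.4% a CCAAT box and 1.87% the NRF1 core. TATAAA, found in 13.6% of windows, was in neither stretch and in neither full window they were cut from. The stretches are 195 and 107 bases long, so shares of full windows are not shares for stretches of that length. Such matches describe letters only. All 7 members matched the promoter table, with 11 windows. The 2 Gabra3 windows held no CpG and both held TATAAA, whereas the Gabra2 window had 25 CpG and 70% G or C, against medians of 7 CpG and 52.7% over all windows.

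Classes and subtypes were those of the deposited annotation, which had been made from the same counts; the members were therefore among the genes available for clustering. Summed over each class, the transmitter markers of the neuron classes matched their labels. Slc17a6 and Slc17a7 together reached 179 to 286 CPM in excitatory neurons and 8.49 to 46.3 CPM in inhibitory neurons. CPM are UMIs of a gene per 1000000 UMIs of the class in that library. Gad1, Gad2 and Slc32a1 together reached 680 to 950 CPM in inhibitory and 34.6 to 58.6 CPM in excitatory neurons. Single excitatory nuclei matched less often. At E19, 1009 of them had more Slc17a6 UMIs than Gad1, Gad2 and Slc32a1 UMIs, 101 had fewer and 228 had equal counts. At P21 these numbers were 560, 40 and 82. Of inhibitory nuclei at P21, 737 had more of the inhibitory markers. The class labelled epithelial lacked its listed markers (Ttr 22.0 CPM, against 141 in astrocytes, Foxj1 3 UMIs and Folr1 none). That class entered no class comparison, only 2 of the 124 profiles used for patterns below. In astrocytes these markers summed to 687 CPM at P4 and to 6.45 to 9.84 CPM in the other libraries. Their sum also peaked at P4 in excitatory neurons (75.1 CPM), inhibitory neurons (97.4 CPM) and the oligodendrocyte lineage (449 CPM). The source of this P4 signal was not tested. Between libraries, 9 cell barcodes occurred more than 1 time, 15 nuclei had more than 50000 UMIs, and excitatory neurons were deeper than inhibitory neurons at every stage (median 19601 against 14009.5 UMIs at P21).

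The class comparison asked whether inhibitory neurons differ from excitatory neurons in these subunits. Of the 7 members, 5 were lower in inhibitory than in excitatory neurons, Gabra5, Gabra4, Gabrb2, Gabrb1 and Gabrg3, and Gabra2 and Gabra3 did not pass the test. The test was edgeR's quasi-likelihood test on UMIs summed per library and class, with the library as a term, over the 4 libraries, which are stages rather than replicates. It asks for a difference common to the 4 stages and called 9.53% of 15686 genes lower and 7.08% higher in inhibitory neurons at an adjusted p of 0.05 (Benjamini-Hochberg). The median log2 difference was -0.37 over the 7 members and 0.0052 over all genes tested.

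Gabra5, the alpha subunit best known from extrasynaptic receptors of hippocampal neurons, had the largest difference of the members. Its levels in excitatory neurons were 107, 115, 183 and 102 CPM from E19 to P21, against 59.6, 78.3, 75.8 and 37.5 CPM in inhibitory neurons. All 4 excitatory values lay above all 4 inhibitory values, and the fitted log2 difference was -1.09 ± 0.17 (SE; edgeR adjusted p 0.0203). This call was lost without the E19 library (adjusted p 0.0510), without the P8 library (0.0779) and with no filter on low counts (0.0739).

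Gabra4 encodes the alpha subunit that pairs with delta in extrasynaptic receptors of the forebrain. It measured 34.4, 40.2, 42.2 and 62.6 CPM in excitatory neurons from E19 to P21, and 22.3, 23.5, 28.6 and 32.6 CPM in inhibitory neurons. The highest inhibitory value lay below the lowest excitatory one, with a log2 difference of -0.79 ± 0.08 (SE; edgeR adjusted p 0.000122).

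Among the beta subunits, Gabrb2 was 345, 291, 330 and 482 CPM in excitatory neurons and 230, 217, 191 and 288 CPM in inhibitory neurons. The highest inhibitory value, at P21, lay just below the lowest excitatory value, at P4. The log2 difference was -0.69 ± 0.07 (SE; edgeR adjusted p 0.000147). Gabrb1 was 852, 963, 1079 and 1036 CPM in excitatory and 649, 802, 833 and 890 CPM in inhibitory neurons, a log2 difference of -0.37 ± 0.06 (SE; edgeR adjusted p 0.0023). Its classes overlapped across stages but were ordered alike within each of the 4 libraries.

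Gabrg3, which encodes a gamma subunit, was 807, 998, 1099 and 1000 CPM in excitatory neurons and 588, 915, 903 and 814 CPM in inhibitory neurons. Again the inhibitory value was the lower one in 4 of 4 libraries, with a log2 difference of -0.34 ± 0.06 (SE; edgeR adjusted p 0.00586).

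Gabra2 and Gabra3, the 2 alpha subunits known from many inhibitory synapses of the young brain, had close values in the classes. Gabra2 was 251, 300, 257 and 230 CPM in excitatory and 302, 254, 285 and 261 CPM in inhibitory neurons; it was higher in inhibitory neurons in 3 libraries and lower at P4 (log2 difference 0.04 ± 0.08 SE, edgeR adjusted p 0.826). Gabra3 was 157, 135, 139 and 123 CPM in excitatory and 169, 149, 148 and 137 CPM in inhibitory neurons, higher in inhibitory neurons in 4 of 4 libraries by a small amount (0.07 ± 0.04 SE, edgeR adjusted p 0.358).

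**Figure D1:**
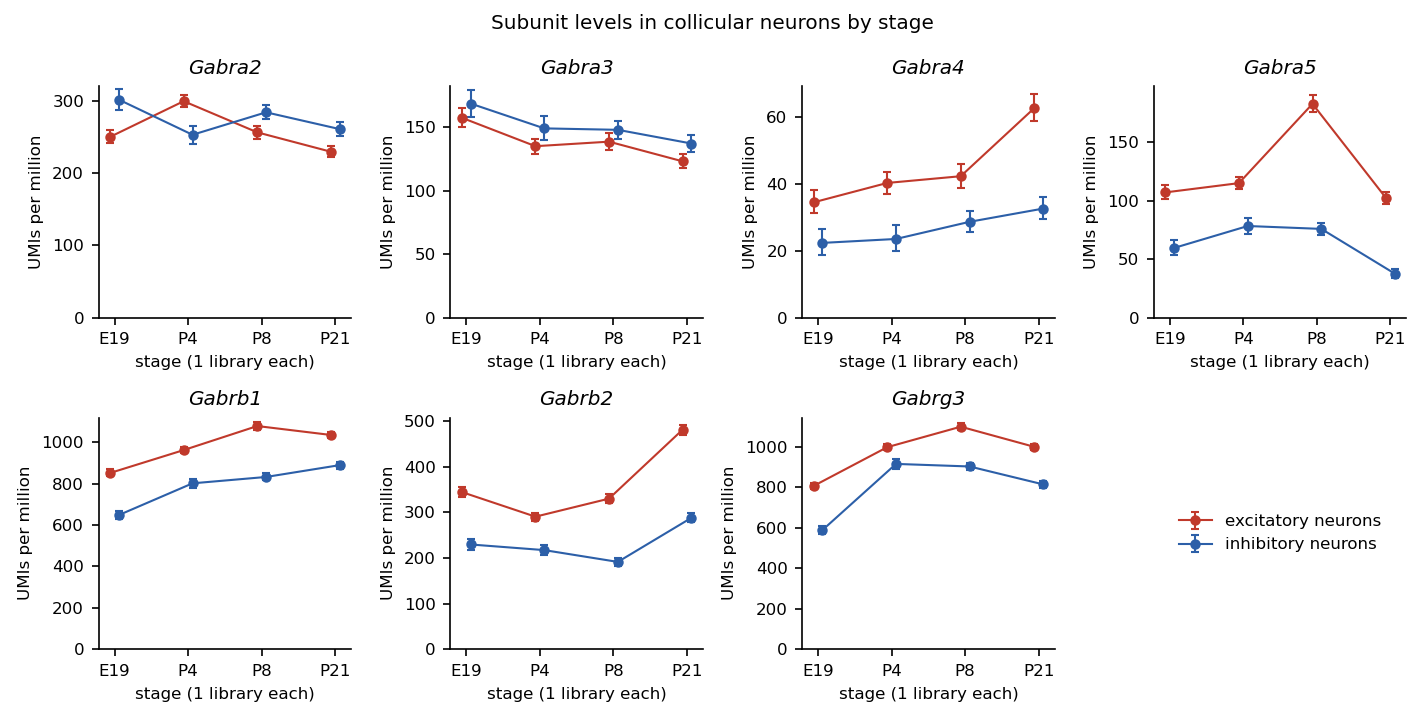
Level of each member (CPM, linear axes from 0) by stage in excitatory (red) and inhibitory (blue) neurons; each point is 1 library, bars are 95% Poisson intervals for counting error only. The red line lies above the blue line at all 4 stages for Gabra4, Gabra5, Gabrb1, Gabrb2 and Gabrg3, and the lines lie close together for Gabra2 and Gabra3.

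**Figure D2:**
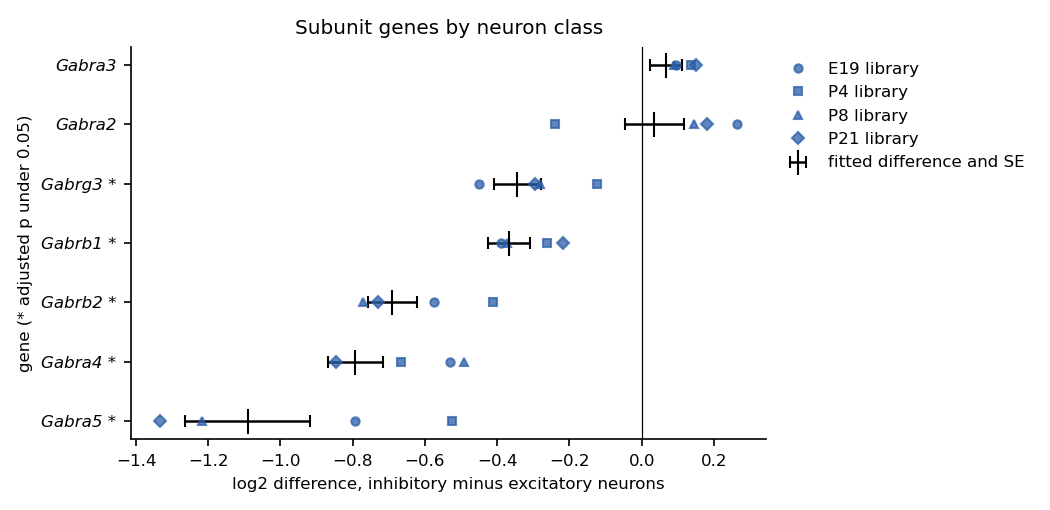
Log2 difference between inhibitory and excitatory neurons for each member; black ticks with bars are edgeR's fitted difference and its SE, blue symbols are the differences in the single libraries (log2 of CPM plus 5), and stars mark adjusted p under 0.05. Members marked with a star have all 4 library symbols left of 0.

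Neurons were also classed anew by their transmitter UMIs (Gad1, Gad2 and Slc32a1 against Slc17a6), which uses no member. Nuclei with equal counts were dropped. In that classing the same 5 members passed as lower, with log2 differences of -0.97 for Gabra5, -0.76 for Gabra4, -0.64 for Gabrb2, -0.34 for Gabrb1 and -0.32 for Gabrg3. With the library term left out of the edgeR fit, 0 of the 7 members passed (lowest adjusted p 0.171, 3 of them at an unadjusted p under 0.05), and that fit called 76 genes higher and 92 lower.

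Other family genes differed between the classes in both directions. Gabrd, the delta subunit of extrasynaptic receptors, was lower in inhibitory neurons (log2 difference -2.55), at under 4 CPM in either class. Higher were the 3 rho subunits, which form receptors without alpha and beta: Gabrr2 (4.35, mean 16.8 against 0.652 CPM), Gabrr1 (3.57, mean 2.56 against 0.198 CPM) and Gabrr3 (1.84, mean 1.04 against 0.258 CPM). From E19 to P21 Gabrr2 was 1.34, 0.939, 3.07 and 61.7 CPM in inhibitory neurons, so P21 carries its mean, and without the P21 library the log2 difference was 1.89 (edgeR adjusted p 0.0113). The Gabrr2 call was lost without the P4 (edgeR adjusted p 0.0520) or the P8 library (0.0536). Gabrr3, with 1 to 19 UMIs per library in inhibitory neurons, was not higher there at P21 (1 UMI, against 2 in excitatory neurons), and its call was lost without the E19 library (edgeR adjusted p 0.0530); without P4 or P8 it had too few UMIs to be tested. Gabrg1, a gamma subunit gene beside Gabra2, did not pass (0.37, edgeR adjusted p 0.0841), and neither did Gabrq. Gabra6, Gabre and Gabrp had too few UMIs.

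A list of 30 measured genes of the inhibitory synapse and of GABA handling (scaffold, trafficking, transporters, GABA-B receptors) had 5 genes higher and 3 lower in inhibitory neurons, 22 not passing and a median log2 difference of 0.03. Over all genes tested 7.08% were higher and 9.53% lower, so lower genes were about as frequent in the list as elsewhere. Among the higher genes were Slc6a11, a mostly glial GABA transporter (log2 difference 0.59), and Abat, which degrades GABA (0.57). From E19 to P21, 5 astrocyte markers summed to 178, 170, 164 and 78.7 CPM in inhibitory neurons. In excitatory neurons they summed to 150, 139, 111 and 66.5 CPM. The part of astrocyte RNA in the Slc6a11 difference was not tested. Lower were Mdga1, which binds neuroligins (-0.94), Slitrk3, an adhesion protein of inhibitory synapses (-0.30), and Dmd, which encodes dystrophin (-0.26).

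Between stages no test was possible, because each stage was 1 library and stage, library and sequencing depth cannot be told apart. In excitatory neurons no member differed by 2-fold or more between E19 and P21 (log2 ratio of at least 1 after adding 5 CPM, with 20 CPM in the higher stage), where 5.35% of 7650 genes were higher by that amount and 10.7% lower. In inhibitory neurons none did either, against 5.83% higher and 11.3% lower of 7807 genes. In both classes 4 members (Gabra4, Gabrb1, Gabrb2 and Gabrg3) were higher at P21 than at E19 and 3 (Gabra2, Gabra3 and Gabra5) lower. The median log2 ratio of the members was 0.28 in excitatory neurons and 0.32 in inhibitory neurons, against -0.061 and -0.037 over all genes.

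Gabra4 had the largest ratio in excitatory neurons. Its P21 value of 62.6 CPM (95% Poisson interval 58.6 to 66.8) lay above the E19 value of 34.4 CPM (31.1 to 38.0), and the ratio of its UMIs to those of Gabra2 went from a log2 of -2.86 at E19 to -1.88 at P21, with the largest step between P8 and P21. In inhibitory neurons the same log2 ratio was -3.76 at E19, and its 95% interval at P21 was -3.17 to -2.85. Gabra5 did not run one way: its highest excitatory value was at P8, and E19 and P21 were close, so that its E19-to-P21 sign turned when libraries were scaled by median ratios or nuclei were weighted alike. Gabrb2 was lower at P4 than at E19 in both classes and highest at P21 in both. Gabra3 was lowest at P21 in both classes; as an X-linked gene it is given with Xist, which measured 0.52 CPM at E19 and 461, 439 and 363 CPM at P4, P8 and P21 in excitatory neurons, so the E19 pool differs from the others in Xist, and its part in the Gabra3 values was not tested.

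Levels of different genes are set side by side per length of gene body, because intronic reads were counted; whether UMIs scale with that length was not tested. Per 100 kb of gene body, P21 levels in excitatory neurons were 230 CPM for Gabrb2, 211 for Gabrb1, 166 for Gabra2, 149 for Gabrg3, 99.8 for Gabra5, 70.7 for Gabra4 and 54.9 for Gabra3. In inhibitory neurons the order was Gabra2 (189), Gabrb1 (181), Gabrb2 (138), Gabrg3 (121), Gabra3 (61.2), Gabra4 (36.8) and Gabra5 (36.6). The last 2 genes were alike there in length-scaled level.

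Glia differed from neurons in most members. Astrocytes take up GABA and carry GABA-A receptors themselves. Over the 4 libraries, 5 of the 7 members were lower in astrocytes than in all neurons, at a background of 22.2% of 16155 genes lower and 20.1% higher: Gabra5 (log2 difference -3.14), Gabra3 (-3.13), Gabrb2 (-2.74), Gabra2 (-1.71) and Gabrg3 (-1.64), each with an edgeR adjusted p of at most 0.000965. Gabra4 (-0.16, adjusted p 0.770) and Gabrb1 (-1.10, adjusted p 0.288) did not pass in the same edgeR test. Without the P21 library, Gabrb1 passed as lower in astrocytes (-1.86, edgeR adjusted p 0.00114). Gabrg1 did not pass (0.30, edgeR adjusted p 0.558). Of the 30 synapse list genes, 10 were higher in astrocytes, among them Slc6a11 (4.57) and Trak1, a trafficking adaptor (1.62), and 8 were lower, led by Iqsec3, an activator of the Arf GTPases at inhibitory synapses (-3.59), Shisa7, an accessory protein of the receptor (-3.43), and Slitrk3 (-2.09).

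Gabrb1 in astrocytes was 149, 314, 523 and 3251 CPM from E19 to P21. The P21 value was above every other class at any stage, including excitatory neurons at P21 (1036 CPM), and the log2 ratio of P21 over E19 was 4.40, with no replicate library. Of the 7 members, 3 (Gabrb1, Gabra4 and Gabra2) were higher by 2-fold or more at P21 than at E19 and none was lower by that amount, where 8.6% of 8577 genes were higher and 18.2% lower. Gabra4 was 10.8, 29.7, 40.3 and 105 CPM (log2 ratio 2.80) and Gabra2 54.0, 105, 116 and 120 CPM (log2 ratio 1.08). Gabra4 and Gabrb1, the divergent pair, were both highest at P21, whereas Gabra2 was already near its P21 value at P4. Gabrg3 was highest at P8 (190, 466, 618 and 251 CPM), and Gabrb2 (68.0, 53.5, 62.9 and 37.5 CPM), Gabra3 (24.8, 17.8, 22.6 and 13.5 CPM) and Gabra5 (13.0, 24.8, 14.5 and 5.54 CPM) were lowest at P21.

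After each nucleus was thinned to 2300 UMIs, the share of astrocytes with a Gabrb1 UMI was 26.5% at E19, then 41.7% (P4), 50.6% (P8) and 98.3% (95% Clopper-Pearson interval 96.0 to 99.4) at P21; unthinned shares were 42.3%, 55.2%, 66.1% and 98.6%. Microglia are not known for the gene. Over all libraries their thinned share was 31.1% (median depth 3219 UMIs, against 4329 to 5525 in astrocytes). The E19 astrocyte share was not above it and is not read as expression. The P4 interval (35.2 to 48.5) overlapped the microglial one (21.8 to 41.7) but lay above that of endothelial nuclei (11.7 to 33.2). The P4 reading of Gabrb1 thus depends on the class compared, while the P8 interval (44.0 to 57.2) was above both. Whether free RNA accounts for the E19 and P4 shares was not tested. For Gabra4 the thinned shares were 1.02%, 6.73%, 6.01% and 20.2%, against 5.56% in microglia (interval 1.83 to 12.5). The first 3 had intervals that overlapped the microglial one, and P21 (interval 15.7 to 25.3) was above it. Endothelial nuclei of all libraries had 0% (interval 0 to 5.78), which the first 3 astrocyte intervals overlapped too. Gabrg3, at 29.1%, 52.5%, 60.9% and 33.4%, was above the microglial interval of 12.3 to 29.8% at P4 and P8, while its E19 and P21 intervals overlapped it. Set against endothelial nuclei (14.5%, interval 6.86 to 25.8), Gabrg3 at P21 (interval 28.0 to 39.2) was also above. Its P21 reading thus depends on the class compared. Gabra2 had 8.67%, 18.8%, 20.6% and 23.0%, against 14.4% in microglia (interval 7.92 to 23.4), all within overlapping intervals. Its P21 interval (18.3 to 28.3) lay above that of endothelial nuclei of all libraries (8.06%, 2.67 to 17.8). It also lay above that of vascular leptomeningeal cells at P21 (5.04%, 2.05 to 10.1). Gabrb2 (7.32% to 15.0%, against 17.8%), Gabra3 (2.44% to 8.67%, against 8.89%) and Gabra5 (1.39% to 6.28%, against 6.67%) did not exceed microglia at any stage. Their astrocyte values are not read as expression, and their source was not tested. Microglia are a high reference for several neuronal genes: Slc17a6 was 91.7 CPM (astrocytes 42.1), Gad2 82.3 (30.2) and Syt1 263 (184). Rbfox3 was not higher in microglia (41.1, astrocytes 43.3). Not exceeding microglia therefore does not show that a value is background. Unthinned shares ranged over 41.3% to 79.0% for Gabrg3, 18.9% to 38.2% for Gabra2, 17.4% to 24.5% for Gabrb2, 7.32% to 11.7% for Gabra3 and 3.14% to 10.8% for Gabra5. No single astrocyte held more than 1.21% of the P21 Gabrb1 UMIs, and the median astrocyte had 17 of them.

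The 2 astrocyte subtypes differed at P21. Protoplasmic astrocytes (232 nuclei) measured 3581 CPM of Gabrb1 and fibrous astrocytes (55 nuclei) 1213 CPM, and Gabra4 was 114 and 48.5 CPM. Beside this, 5 astrocyte markers summed to 2209 CPM in astrocytes at E19 and 5960 at P21, 3 pan-neuronal markers to 307 and 364 CPM, and 8 oligodendrocyte lineage markers to 190 and 723 CPM. The neuronal sum was at most 364 CPM in astrocytes at any stage, against 1728 to 3542 CPM in neurons. The part of astrocyte maturity in the Gabrb1 and Gabra4 values was not tested.

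**Figure D3:**
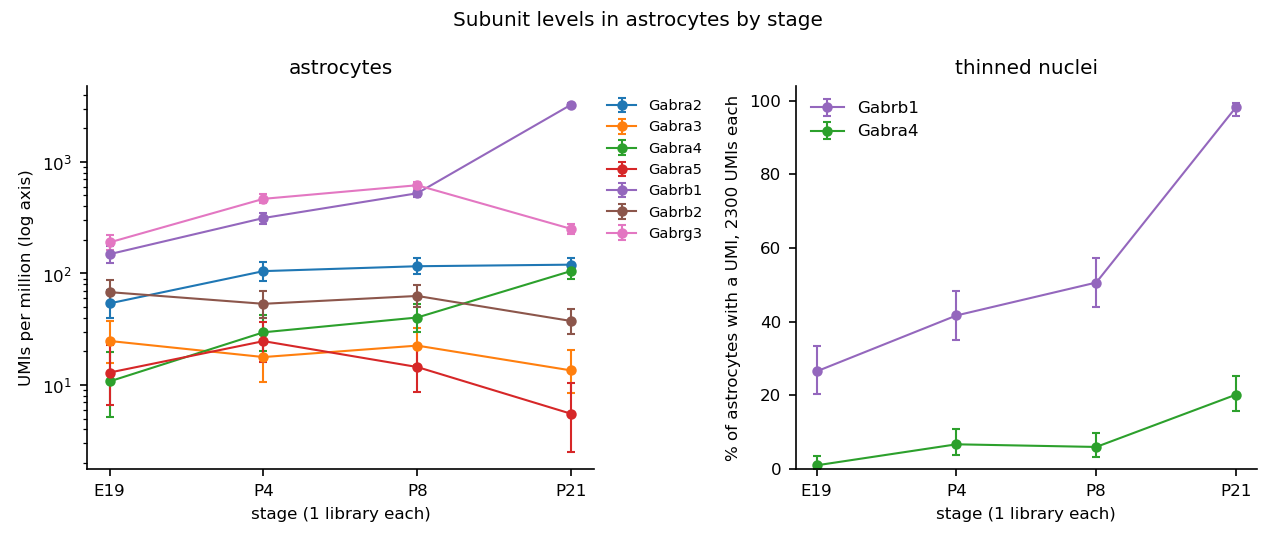
Left, level of the 7 members in astrocytes by stage on a log axis (CPM, 95% Poisson intervals); right, percent of astrocytes with a UMI of Gabrb1 or Gabra4 after thinning each nucleus to 2300 UMIs (95% Clopper-Pearson intervals). Each stage is 1 library; Gabrb1 goes from 149 at E19 to 3251 at P21.

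In the oligodendrocyte lineage all 7 members tested were lower than in neurons, at a background of 13.8% of 15552 genes, with 8.22% higher, from -1.13 for Gabra3 (edgeR adjusted p 0.0223) to -3.99 for Gabra5 (edgeR adjusted p 6.5e-06). Precursors and mature cells differed within the class. At P21 precursors (64 nuclei) had 397 CPM of Gabrg3, 284 of Gabrb1, 164 of Gabrb2, 157 of Gabra3 and 96.8 of Gabra2, while myelinating oligodendrocytes (187 nuclei) had 24.2, 76.6, 21.1, 7.66 and 22.3 CPM. The Gabra3 call was lost without the E19 library (edgeR adjusted p 0.0723), with library totals in place of TMM factors (0.0795) and with no library term (0.0777). With precursors alone in place of the whole lineage, Gabra3 no longer passed (-0.34, edgeR adjusted p 0.154). Gabra3 in precursors, at 99.7, 131, 131 and 157 CPM from E19 to P21, lay near the neuronal levels of 123 to 169 CPM. Of the synapse list, 4 genes were higher in the lineage (Plcl1, Rdx, Gabarap and Nlgn3) and 4 lower (Iqsec3, Mdga1, Plcl2 and Nsf).

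Within each neuron class the members had different high and low subtypes, and the order of levels was described without a test, since subtypes are clusters of the same counts. Over subtypes with at least 20 nuclei in a library, 261 of 308 pairs of neighbours in the order of levels had overlapping 95% Poisson intervals in excitatory neurons and 283 of 308 in inhibitory neurons; single ranks therefore mean little, and the ends of the order are given. EN6, an excitatory subtype of 30 to 101 nuclei per library, was highest for Gabra2 (704, 545, 542 and 536 CPM from E19 to P21) and Gabrb1 (2230, 1630, 1756 and 1657 CPM) in all 4 libraries. The same nuclei were among the 3 lowest for Gabrg3 in all 4 (238, 133, 216 and 156 CPM). EN8 was the other way round, with 1247, 1602, 1804 and 1569 CPM of Gabrg3 and 174, 135, 151 and 68.6 CPM of Gabra2.

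EN12 (22 to 59 nuclei) was also low in Gabrg3, 175, 132, 81.5 and 56.3 CPM, and had 46.4, 76.5, 67.4 and 153 CPM of Gabra4. At E19 its Gabra4 value was below those of EN6 (94.1), EN10 (72.7), EN5 (69.6) and EN9 (50.3 CPM). At P8 it was below those of EN6 (90.2) and EN5 (72.1 CPM). EN12 was the highest excitatory subtype for Gabra4 at P4 and P21, and at P21 the lowest for Gabrg3. EN9 was among the 3 highest for Gabra5 in all libraries (210, 264, 408 and 263 CPM) and for Gabra3 (219, 194, 181 and 172 CPM). Across excitatory subtypes the ratio of the highest to the lowest level at E19 was smallest for Gabra3 (1.86) and largest for Gabrg3 (12.8). At P21 it was smallest for Gabrb2 (2.91) and again largest for Gabrg3 (28.6).

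Among inhibitory subtypes IN6 (42 to 80 nuclei) was highest for Gabra2 at E19 (1055 CPM), P4 (640) and P8 (601), but not at P21 (251). IN5 was among the 3 highest for Gabrb2 in all 4 libraries (371, 274, 303 and 434 CPM). IN3 and IN4 were among the 3 lowest for Gabrb2 and for Gabrg3 in all 4. In IN3 Gabrg3 was 89.4, 233, 216 and 87.8 CPM and Gabrb2 49.7, 72.6, 108 and 129 CPM.

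IN3 also held most UMIs of the rho subunit gene Gabrr2, which was singled out after its values were seen. At P21, 653 of the 697 Gabrr2 UMIs of inhibitory neurons (93.7%) lay in IN3, in 79 of its 126 nuclei, at 328 CPM (95% Poisson interval 303 to 354). At P8 IN3 had 12.5 CPM, at P4 none and at E19 3.31 CPM (1 UMI). Of the 40 Gabrr1 UMIs of inhibitory neurons at P21, 30 lay in IN3. Gabrr1 and Gabrr2 are neighbours on chromosome 4.

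**Figure D4:**
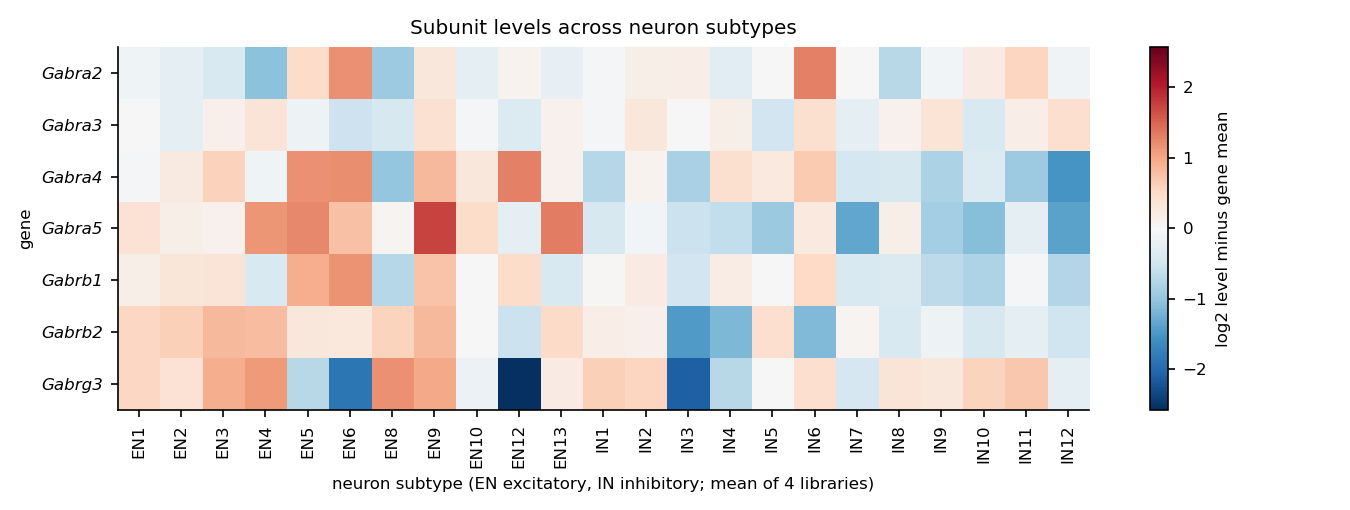
Mean level over the 4 libraries of each member (rows) in neuron subtypes with at least 20 nuclei in every library (columns), as log2(CPM + 5) minus the mean of that gene over the subtypes shown; red is above and blue below the mean. EN6 is red for Gabra2, Gabra4 and Gabrb1 and blue for Gabrg3, and EN12 and IN3 are blue for Gabrg3.

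The genes most like each member were sought among 7550 genes with a mean of at least 20 CPM, by Pearson's r of log2(CPM + 5) over profiles of 1 subtype in 1 library with at least 20 nuclei. These points share libraries, depth and clustering, and r is a description only. Over all 124 profiles, glia included, the contrast of neurons with glia weighs most: the closest genes were Lrfn5 for Gabra2 (r = 0.83), Svop for Gabra3 (0.91), Gabrb1 for Gabra4 (0.73), Camkv for Gabra5 (0.81), Gabra2 for Gabrb1 (0.82), Nrg3 for Gabrb2 (0.86) and Ahi1 for Gabrg3 (0.79). Among the next were Gabrb1 and Syt1 for Gabra2, Adcy2 for Gabra4, Crhr1 and Plch2 for Gabra5, Jakmip1 and Nell1 for Gabrb1, Camk2b and Rasgef1a for Gabrb2, and Ryr2 and Fgf12 for Gabrg3.

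Over the 96 neuron profiles, Gabra4 and Gabrb1 were each the closest of the other 7549 genes to the other (r = 0.73). The closest gene to Gabra2 was Gabrg1 (0.60), on the same stretch of chromosome 5, and those to Gabra3 and Gabrg3 were Tfap2b (0.55) and Plxna4 (0.69). Gabra2 had r = 0.49 with Gabrb1 and 0.34 with Gabra4. Gabrg3 was not close to its neighbour Gabra5, with r = 0.21 (rank 1666). Over the 17 pairs of members on different chromosomes the median r was 0.033, against 0.41 over the 4 pairs on the same chromosome. The 2 sets overlapped: pairs on different chromosomes ran from -0.29 (Gabra2 with Gabrg3) to 0.46 (Gabra5 with Gabrb1). All same-chromosome pairs but Gabra5 with Gabrg3 share genes with each other.

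Within single libraries (23 to 25 profiles) the median over the 4 same-chromosome pairs was 0.52, 0.35, 0.54 and 0.50 from E19 to P21, and the median over the other 17 pairs lay between -0.018 and 0.15. Among excitatory subtypes alone the same-chromosome median was 0.71 and among inhibitory subtypes 0.32. The Gabra4 and Gabrb1 levels had r = 0.77 among excitatory and 0.59 among inhibitory profiles. Gabra2 and Gabrb1 had 0.77 and 0.32, and Gabra5 and Gabrg3 had 0.14 and 0.33. The part of shared UMIs in the Gabra4 and Gabrb1 values was not tested.

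**Figure D5:**
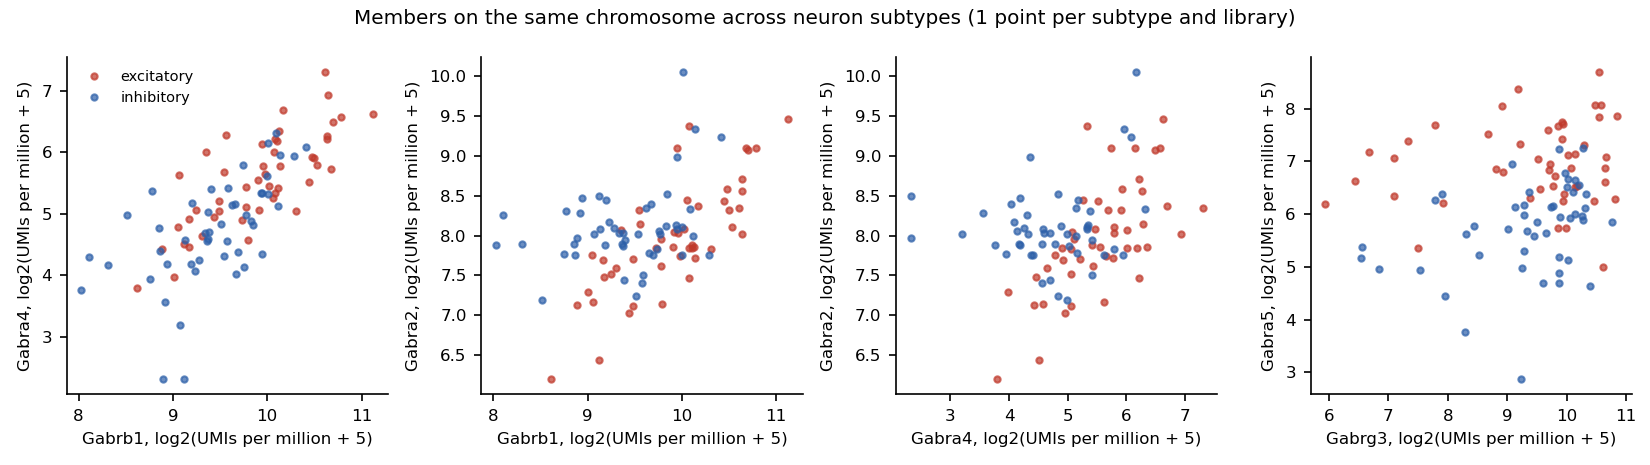
Levels of members on the same chromosome, log2(CPM + 5), with 1 point per neuron subtype and library (96 points; red excitatory, blue inhibitory). Gabra4 with Gabrb1 forms a rising cloud (r = 0.73), the pairs of Gabra2 with Gabrb1 and with Gabra4 are looser (r = 0.49 and 0.34), and Gabra5 with Gabrg3 is the loosest (r = 0.21).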

How the data were processed

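Single-nucleus RNA of 4 libraries (E19, P4, P8, P21) was measured with the 10x Genomics 3′ chemistry and, per the labels' protocols, aligned with Cell Ranger 3.0.2 to a pre-mRNA mm10 reference, so intronic reads count. The authors deposited raw UMI counts per gene and nucleus, with a table of stage, class and subtype per nucleus and the percent of mitochondrial and ribosomal UMIs, which the authors deposited too and which served only to describe libraries; 7 further columns of per-nucleus values were not used. The sources used here do not give the filter on nuclei, the doublet removal or the joining of libraries. No nucleus was removed and no doublet caller was run.

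UMIs were summed per library and class or subtype and scaled to CPM. Classes were tested with edgeR 4.0.16 in R 4.3.3 (TMM factors, filterByExpr, library and class terms, robust quasi-likelihood fit), with DESeq2 1.42.0 as an alternative. The library block pairs classes because both come from the same nuclei suspension. Intervals are 95% and cover counting error only. Figures and levels used Python 3.11.15. The edgeR script was tested on simulated data. Named genes are the 7 members, up to 3 genes per direction by log2 difference from each fixed list, and the 3 genes with the highest r per member; single subtypes were chosen for description with their values known. Some genes that this rule names are not reported here. The members and lists were chosen with earlier results of these data known.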

Additional observations from a re-analysis of the deposited data

Results flagged for a closer look

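The members Gabra2 and Gabrb2 had opposite signs in astrocytes and in both neuron classes when P21 was set against E19. Gabra2 had a log2 ratio of P21 over E19 of 1.08 in astrocytes, against lower P21 than E19 values in excitatory (251 and 230 CPM) and inhibitory neurons (302 and 261 CPM). Gabrb2 had a log2 ratio of -0.78 in astrocytes, against higher P21 than E19 values in excitatory (345 and 482 CPM) and inhibitory neurons (230 and 288 CPM). The thinned share of astrocytes with a Gabrb2 UMI (7.32% to 15.0%) was below that of microglia (17.8%) and is not read as expression. The Gabra2 shares (8.67% to 23.0%) overlapped the microglial interval (7.92 to 23.4). At P21 the Gabra2 interval (18.3 to 28.3) lay above that of endothelial nuclei (2.67 to 17.8). The reading of Gabra2 in astrocytes thus depends on the class compared, and its source was not tested. The opposition also depends on the stages compared: from E19 to P8 the log2 ratios were -0.061 (excitatory) and -0.26 (inhibitory) for Gabrb2, and 0.035 for Gabra2 in excitatory neurons. With 1 library per stage the difference between the classes was not tested.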

How the results depend on the processing

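The 5 members lower in inhibitory neurons kept their direction in each of the 12 tested alternatives. Without the replicate block (library term left out), 76 genes were higher and 92 lower in inhibitory neurons and 0 members passed: Gabra4 -0.79, Gabra5 -1.07, Gabrb1 -0.35, Gabrb2 -0.70 and Gabrg3 -0.32. Gabra5 also did not pass with no filter on low counts (-1.09). Called genes (1110 higher, 1495 lower) numbered 627 and 972 with DESeq2, 693 and 956 with nuclei thinned to 2300 UMIs, and 1729 higher with library totals in place of TMM factors, where the share of higher calls was larger. Leaving out 1 library gave 493 to 1072 higher and 775 to 1296 lower genes, 4 to 5 members lower, Gabra5 at -1.25 to -0.95, and Gabra2 at -0.028 (without E19) to 0.14. With subtypes weighted alike Gabrb1 was -0.53, and with nuclei weighted alike Gabra4 was -0.58, both without a test. In astrocytes Gabra4, which did not pass, was 0.064 without TMM factors, 0.18 without the replicate block and 0.14 without E19 (-0.62 to 0.14 over libraries left out), and Gabrb1 was 0.12 without the block. Leaving out 1 library gave 644 to 1818 higher and 1323 to 2542 lower genes in the oligodendrocyte lineage.

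Between stages, signs turned in these cases. With E19 to P8 in place of E19 to P21 the log2 ratios were 0.035 for Gabra2, 0.74 for Gabra5 and -0.061 for Gabrb2 in excitatory neurons, 0.32 for Gabra5 and -0.26 for Gabrb2 in inhibitory neurons, and 0.12 for Gabra5 in astrocytes. With P4 to P21 they were 0.043 for Gabra2 and -0.17 for Gabrg3 in inhibitory neurons and -0.88 for Gabrg3 in astrocytes. Gabra5 in excitatory neurons was 0.048 with median-of-ratios scaling and 0.11 with nuclei weighted alike. The median-of-ratios scaling moved the median log2 ratio over all genes from -0.061 to 0.047 in excitatory neurons, from -0.037 to 0.068 in inhibitory neurons and from -0.24 to 0.030 in astrocytes. No paired analysis between stages was possible because each stage had 1 library.

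Of 28 highest subtypes (7 members in 4 libraries), 15 were the same with at least 50 nuclei and 15 with thinned nuclei in excitatory neurons, and 18 with thinned nuclei in inhibitory neurons; EN6 has 30 nuclei at E19 and 41 at P4. The most like gene was the same for 2 of 7 members with Spearman's rho and for 1 with neuron profiles only. The causes were not tested. Alternatives without nuclei over 50000 UMIs, those for astrocyte stages and the narrower neuron profiles were chosen after seeing the data.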
